A study of Homo sapiens with 11 samples.

Results

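RT4 is a cell line from a human bladder papilloma, a tumor of the urothelium. Days 6, 7 and 8 of its culture on Matrigel, a gel of extracellular matrix remodeled by cancer cells, are described here against days 1, 2, 3, 4 and 9 on Matrigel. The series holds 11 one-color arrays, and these days make up 3 of them, set against 5 others. All were RNA of RT4 cells in McCoys medium with fetal calf serum, labeled with Cy3, without any other treatment or altered gene. Cells were laid on the solidified gel in culture inserts, the medium below was renewed at intervals, and 1 array was made at 12 h and on each of the 8 days. The days on which medium was renewed are not given in the sources used here. The other 3 arrays, 2 of cells on plastic and 1 of cells after 12 h on Matrigel, took no part in the comparison. The 3 days were chosen by values measured on these arrays, after TRIB3, TUBA1B and SLC1A5 had been seen to stand apart on them. The differences between days 6 to 8 and the other days are therefore given as a description, without a test. No label says that the days came from separate cultures, each day has a single array, and the spread between days stands in for replicate error.

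Cells that run short of an amino acid, or that are under other stress, can phosphorylate the initiation factor eIF2, which lowers protein synthesis as a whole but favors translation of the transcription factor ATF4. ATF4 then raises genes of amino acid transport and synthesis, tRNA charging and stress signaling. Many of these genes carry a short promoter element at which ATF4 binds together with a C/EBP protein. TRIB3, a pseudokinase that feeds back on ATF4, and SLC1A5, a transporter of glutamine and other neutral amino acids, are known targets of this pathway, and TUBA1B encodes an alpha-tubulin of the microtubules.

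The promoters of 4 of these genes are shown because TRIB3 and SLC1A5 marked the days, and because asparagine synthetase (ASNS) and glycyl-tRNA synthetase (GARS1) are textbook targets that were also higher on them. Each run is the 250 bases before 1 transcription start of the gene in RefSeq for GRCh38.p14, written 5′ to 3′ on its strand. Letters that match TGATGNAA on either strand are in capitals. TRIB3 and SLC1A5 had 3 such windows each, and ASNS and GARS1 had 2. The first window with a match was shown where there was one, so the matches shown follow from that choice. They lie at chr20:381045-381294 (TRIB3, plus strand), chr19:46784815-46785064 (SLC1A5, minus strand), chr7:97872409-97872658 (ASNS, minus strand) and chr7:30594628-30594877 (GARS1, plus strand).
TRIB3: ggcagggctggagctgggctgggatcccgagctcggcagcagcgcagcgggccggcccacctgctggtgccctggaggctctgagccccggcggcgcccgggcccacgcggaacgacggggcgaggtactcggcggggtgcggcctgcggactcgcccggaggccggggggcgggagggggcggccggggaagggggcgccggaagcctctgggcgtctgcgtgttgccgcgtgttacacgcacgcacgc
SLC1A5: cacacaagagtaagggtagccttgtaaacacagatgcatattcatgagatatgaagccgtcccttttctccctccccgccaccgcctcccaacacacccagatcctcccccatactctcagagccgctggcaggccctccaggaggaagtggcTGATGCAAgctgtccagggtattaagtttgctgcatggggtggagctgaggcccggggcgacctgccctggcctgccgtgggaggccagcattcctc
ASNS: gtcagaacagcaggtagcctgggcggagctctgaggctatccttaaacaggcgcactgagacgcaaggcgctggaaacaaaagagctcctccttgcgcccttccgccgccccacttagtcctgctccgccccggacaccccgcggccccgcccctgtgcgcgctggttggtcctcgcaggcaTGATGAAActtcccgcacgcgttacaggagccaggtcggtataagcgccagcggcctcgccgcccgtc
GARS1: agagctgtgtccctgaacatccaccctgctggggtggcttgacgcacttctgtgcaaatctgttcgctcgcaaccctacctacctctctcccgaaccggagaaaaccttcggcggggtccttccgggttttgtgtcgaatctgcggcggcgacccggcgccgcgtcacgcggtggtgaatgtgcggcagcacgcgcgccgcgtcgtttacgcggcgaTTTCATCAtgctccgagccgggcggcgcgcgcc
SLC1A5 matched from base 97 to base 90 before the start, ASNS from base 68 to base 61, and GARS1, on the opposite strand, from base 33 to base 26. The TRIB3 window shown held no match, and neither did its other windows. These letters occur in 3.14% of the 35116 windows of the same length, and in at least 1 window of 3.89% of 27305 genes. By gene, 4 of the 17 amino acid response regulators with a window held them. Of the 4 regulators with a window that were higher without overlap, 1 held them, ASNS. The other holders, CHAC1, ATF3 and CEBPG, overlapped between the groups. A match is a description of the sequence, not of binding.

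Values are in SDs of the noise peak around the zero point of each array, the scale of the study. Values below 3 SD were set to 3 SD, and 19710 probes above 3 SD on at least 2 of the 8 arrays were compared, for 13670 named genes. Of these probes, 604 (3.06%) had all 3 arrays of days 6 to 8 above all 5 others and 639 (3.24%) had all 3 below. With a mean difference of at least 2-fold as well, 18 probes (0.0913%) were higher and 85 (0.431%) were lower. With 1 probe for each gene, 481 genes (3.52%) were higher and 411 (3.01%) lower without overlap, and 14 (0.102%) and 30 (0.219%) also reached 2-fold. The 85 lower probes included 17 spots of TUBA1B and 15 of GAPDH, the glycolytic enzyme often used as a reference. Just inside the 2-fold line lay probes of HMOX1 (log2 difference 1.00) and AMPH (1.03) on the higher side and of BLOC1S1 and CASP4 (-1.01 each) on the lower one. Just outside it were SESN2 (0.97), DLG3 (0.95), ARHGDIB and ZNF14 (-0.99 each).

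**Figure D1:**
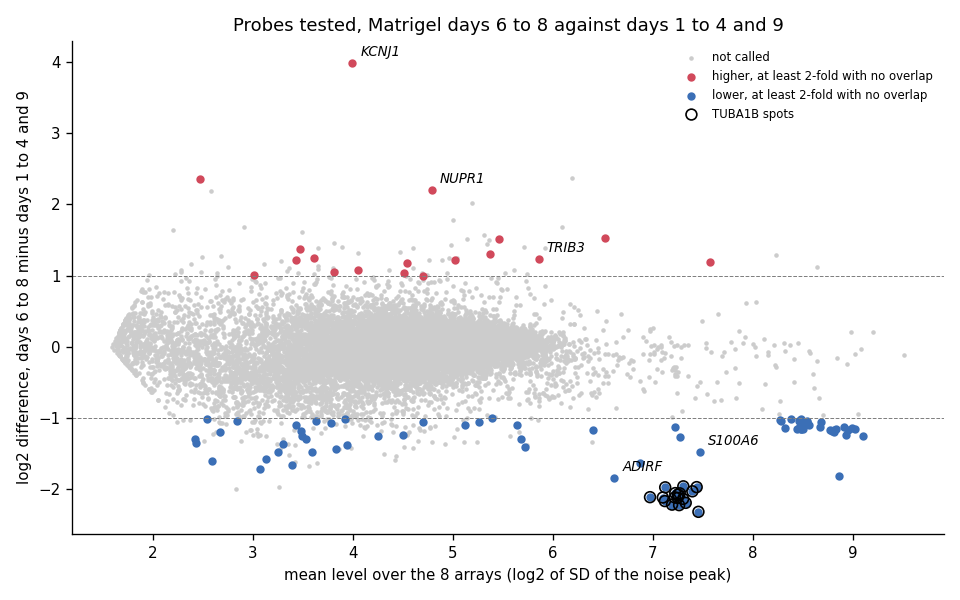
Log2 difference between the mean of days 6 to 8 and the mean of days 1 to 4 and 9 (vertical axis) against the mean level over the 8 arrays (horizontal axis, log2 of SDs of the noise peak), with 1 point per probe and dashed lines at 2-fold. The 18 higher probes are spread over low and high levels, while many of the 85 lower probes lie at the right, among them the 17 circled spots of TUBA1B near a difference of -2.

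The arrays of days 6 to 8 differed from the others in how they had been scaled. Regressed on the raw intensities, both as log10, the deposited values had slopes of 1.16, 0.904 and 1.11 on days 6, 7 and 8, and 1.22 to 1.27 on the other 5 days. The raw median intensity was 430, 250 and 381 on days 6, 7 and 8 against 338 to 482, and the 99th percentile of the deposited values was 76.0 to 79.4 SD against 87.4 to 99.1 SD. Of 10 equal groups of probes by level, the brightest held 59 of the 85 lower and 5 of the 18 higher probes at 2-fold. The 85 count 17 spots of TUBA1B and 15 of GAPDH, both bright genes, as separate probes. Values rebuilt from the raw intensities without the regression moved the median of all genes from -0.01 to -0.23 and left 34 probes higher and 903 lower without overlap, and quantile normalization left 16 higher and 26 lower at 2-fold. Counted by gene without overlap, 31 of 13551 were higher and 595 lower without the regression, and 446 of 13549 and 325 by quantile normalization. Values rebuilt with the regression gave 498 of 13611 and 365. The counts were 251 of 13670 and 185 with the 12 h array among the other days, and 855 of 13643 and 982 without day 6. Counts of a gene list under these settings are to be read against these. Rank correlations within days 6 to 8 ran from 0.880 to 0.924, and those between days 6 to 8 and days 1 to 4 from 0.856 to 0.924, so these ranges overlapped. In total RNA, a change in which cells gave the RNA and a change in the level per cell cannot be told apart.

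Of 21 measured regulators of the amino acid response, 6 (28.6%) were higher on days 6 to 8 without overlap, 0 were lower and 15 overlapped. The 6 include TRIB3, by whose values the days were chosen, so its place among them was given in advance. The median log2 difference of the 21 was 0.55 against -0.01 over all genes, and without the regression it was 0.20 against -0.23. TRIB3 stood at 99.9, 98.6 and 98.1 SD on days 6, 7 and 8 and at 40.2, 39.1, 45.2 and 34.5 SD on days 1 to 4, with 54.0 SD on day 9. The 3 days were within 2 SD of each other and lay well above every other array, with a log2 difference of 1.23 (SE 0.13, 3 arrays against 5), or 2.35-fold. NUPR1, a small stress-induced chromatin protein, was measured at 58.3, 80.7 and 78.3 SD on days 6, 7 and 8. Its other values were 13.4, 20.6, 14.2 and 7.63 SD on days 1 to 4 and 31.1 SD on day 9, none of which reached the 3 days, and the log2 difference was 2.20 (SE 0.38).

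SESN2, which holds back the growth kinase mTORC1 when leucine is short, was at 65.1, 65.8 and 59.8 SD on days 6 to 8 against 27.0 to 40.7 SD on the other days. The log2 difference was 0.97 (SE 0.12), just under 2-fold, with no overlap. EIF4EBP1, a repressor of cap-dependent translation, was at 38.3, 38.4 and 39.2 SD on days 6 to 8. On the other days it varied more, from 7.56 SD on day 4 to 29.1 SD on day 9, for a log2 difference of 1.18 (SE 0.37). ASNS, which makes asparagine, stood at 71.5, 75.4 and 89.5 SD against 46.5, 43.1, 46.2, 60.7 and 64.5 SD on days 1 to 4 and 9. Its lowest value of the 3 days was above day 9 by a small margin, and the log2 difference was 0.61 (SE 0.15). ATF5, a transcription factor of the ATF4 family, also did not overlap (log2 difference 0.61, SE 0.28), with 39.4 to 44.5 SD on days 6 to 8 and 13.9 to 35.9 SD on the others.

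Other regulators overlapped between the groups. DDIT3, the stress factor also called CHOP, was at 22.6, 33.1 and 33.8 SD on days 6 to 8 and between 11.7 and 24.1 SD on the other days. CHAC1, which breaks down glutathione, was above the floor on day 7 alone among days 6 to 8, at 15.7 SD. EIF2AK3 and EIF2AK4, kinases that phosphorylate eIF2, had log2 differences of -0.00 and 0.14. CEBPG and ADM2 had log2 differences of -0.07 and -0.41.

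**Figure D2:**
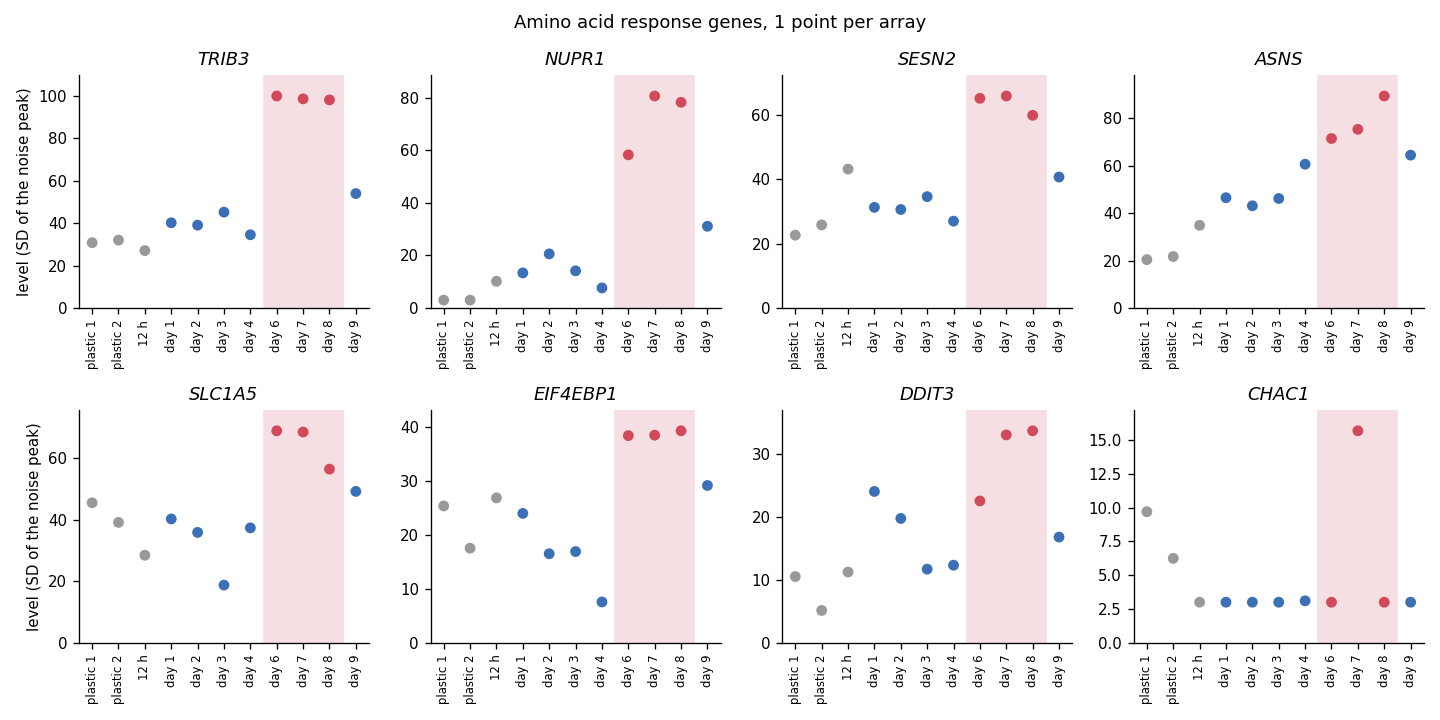
Levels of 8 amino acid response genes on each of the 11 arrays (vertical axis, SDs of the noise peak, from 0), with plastic and 12 h in gray, days 1 to 4 and 9 in blue and days 6 to 8 in red on a shaded band. TRIB3, NUPR1, SESN2, ASNS, SLC1A5 and EIF4EBP1 have all 3 red points above all blue points, while DDIT3 and CHAC1 overlap.

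Transporters of amino acids were mixed, with 4 of 24 higher and 2 lower without overlap and a median log2 difference of 0.15. The 4 include SLC1A5, by whose values the days were also chosen. Without the regression, 2 of 23 were higher and 0 lower, with a median of -0.13. All genes then had 31 of 13551 higher, 595 lower and a median of -0.23. SLC1A5 was at 68.8, 68.4 and 56.4 SD on days 6, 7 and 8 and at 40.2, 35.8, 18.7 and 37.3 SD on days 1 to 4, with 49.1 SD on day 9. The groups did not overlap, and its log2 difference of 0.89 (SE 0.27) was short of 2-fold. SLC7A5, the light chain of the large neutral amino acid transporter, had 58.2 to 62.7 SD against 36.5 to 48.2 SD (log2 difference 0.51, SE 0.09). SLC38A1, a glutamine transporter, and SLC7A2, a carrier of cationic amino acids, differed by 0.46 and 0.34, and SLC6A6, the taurine transporter, and SLC38A3 by -0.29 and -0.33. The other probe of SLC7A2 differed by -0.01.

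Of 19 genes of amino acid and one-carbon synthesis, 2 were higher and 1 lower without overlap. ASS1, which joins citrulline and aspartate on the way to arginine, was at 50.7, 56.1 and 58.6 SD on days 6 to 8 and at 22.7, 20.6, 19.2 and 16.9 SD on days 1 to 4, with 48.4 SD on day 9. Days 6 to 8 and day 9 lay together, far above days 1 to 4, and the log2 difference from the 5 other days was 1.22 (SE 0.30). MTHFD2, a mitochondrial folate enzyme, had 48.8 to 54.4 SD against 28.5 to 45.0 SD (log2 difference 0.62, SE 0.14), and GPT, an alanine transaminase, was lower by a log2 difference of -0.16. Among 16 tRNA synthetases, GARS1 had 73.8, 74.0 and 79.5 SD on days 6 to 8 and 41.6 to 54.5 SD on the other days, without overlap (log2 difference 0.68, SE 0.10). CARS1 was also higher (0.74, SE 0.20), QARS1 was lower (-0.35, SE 0.12), and the median of the list was 0.14.

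Genes of the unfolded protein response of the endoplasmic reticulum, another route to eIF2, had a median log2 difference of 0.04, with 1 of 17 higher and 1 lower without overlap. HSPA5, the main chaperone of this compartment, was at 71.9, 83.0 and 98.0 SD on days 6 to 8 and at 42.1 to 65.6 SD on the others (0.65, SE 0.15), and SDF2L1 differed by -0.43. Of 24 heat shock proteins and chaperones, 2 were higher, the mitochondrial HSPA9 (0.81) and HSPB8 (0.28), and 4 lower. HSP90AA1 was at 65.6, 69.7 and 68.7 SD against 88.5 to 197 SD (log2 difference -0.87, SE 0.21), and HSPE1, a co-chaperonin of the mitochondrial matrix, differed by -0.67. HSP90AB1 differed by -0.32, but by 0.02 under quantile normalization. The other probes of HSPA9 and HSPB8 differed by 0.04 and -0.19. HSPB1 was at the floor on days 6 and 7 and at 7.09 SD on day 8, against 8.89 to 17.1 SD, a log2 difference of at least 1.71 in size.

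Of 23 antioxidant genes under the transcription factor NRF2, 5 were higher and 1 lower without overlap, with a median log2 difference of 0.21. The counts were 8 and 0 under quantile normalization and 2 and 1 without the regression, where the median was 0.01. SQSTM1, a cargo receptor of autophagy that also frees NRF2, was at 313, 270 and 385 SD on days 6, 7 and 8 and at 118, 106, 124 and 133 SD on days 1 to 4, with 255 SD on day 9. The 3 days were the highest, day 9 lay next to them, and the log2 difference was 1.20 (SE 0.27), while a second SQSTM1 probe differed by -0.03. HMOX1, which breaks down heme, was at 38.1, 43.0 and 39.5 SD on days 6 to 8 and at 32.8, 29.7, 27.4 and 20.5 SD on days 1 to 4, but at 5.96 SD on day 9. Day 9 made the difference from the 5 other days reach 2-fold, and without it the log2 difference was 0.56. TXNRD1, a thioredoxin reductase, had 34.7, 40.9 and 59.4 SD against 18.7 to 25.2 SD (0.93, SE 0.18). GCLM, a subunit of the enzyme that starts glutathione synthesis, and the quinone reductase NQO1 differed by 0.53 and 0.30, and glutathione reductase (GSR) by -0.53.

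Interferon-response genes had a median log2 difference of 0.44, with 5 of 21 higher and 0 lower without overlap. Without the regression, 3 of 20 were higher and the median was -0.02, against -0.23 over all genes. IFIH1, a sensor of double-stranded RNA, was at 137, 153 and 270 SD on days 6, 7 and 8, at 52.2, 54.9, 55.8 and 57.9 SD on days 1 to 4, and at 97.8 SD on day 9. Day 8 was the highest and the groups did not overlap (log2 difference 1.53, SE 0.26), while its other probe differed by 0.33. MX1, an antiviral GTPase, had 35.0, 61.6 and 39.0 SD against 20.3 to 26.8 SD, for a log2 difference of 0.94 (SE 0.18). OAS1, OASL and RSAD2, also antiviral effectors, differed by 0.77, 0.70 and 0.64. IRF1, a transcription factor of the same response, overlapped at -0.70.

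The remaining higher genes at 2-fold had varied roles. KCNJ1, a potassium channel, was at 44.4, 138 and 117 SD on days 6 to 8 and at or below 10.9 SD on every other day, at least 15.8-fold higher. PTX3, a secreted pentraxin of innate immunity, had 64.5 to 80.1 SD against 21.6 to 45.7 SD (log2 difference 1.31, SE 0.21). SPIRE2, an actin nucleator, and PTGR1, a prostaglandin reductase, differed by 1.25 and 1.22 without overlap, and for both the 2 plastic arrays were no lower than the lowest of days 6 to 8, with 22.9 to 28.4 SD and 21.1 to 21.8 SD. CHCHD6, a protein of the mitochondrial cristae, rested on day 6 alone at 311 SD, with 3.59 and 3.23 SD on days 7 and 8. MAP1LC3B, an autophagosome protein, rested on day 8 alone at 427 SD, with 38.1 and 37.9 SD on days 6 and 7. Besides SQSTM1 and MAP1LC3B, the autophagy and lysosome list of 26 had 2 lower genes, NPC2 (-0.56) and ATG4B (-0.26), and a median of 0.03.

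TUBA1B, spotted 17 times on each array, was lower on days 6 to 8 at every spot. The days were chosen by its values as well, so this direction was given in advance. The mean of the 17 spots was 54.8, 60.6 and 68.3 SD on days 6, 7 and 8, against 338, 281, 256 and 190 SD on days 1 to 4 and 273 SD on day 9. No spot overlapped between the groups, with log2 differences between -2.32 and -1.96 and a mean of -2.11 (SD 0.10 over spots, which share each day's RNA). If the probe numbers are read as block and position in it, which no file states, the spots lay in 5 of 32 blocks. A probe that reads near-identical tubulins cannot be told from one that reads TUBA1B alone. Of 11 other tubulin genes measured, TUBB1 (0.29) was higher without overlap and none was lower, with differences from -0.31 upward.

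Genes of the actin cytoskeleton had 3 of 21 lower and 0 higher without overlap, with a median log2 difference of -0.13, and 0 in either direction without the regression. Cofilin (CFL1), which severs actin filaments, was at 128, 120 and 127 SD on days 6 to 8 and at 169 to 246 SD on the others (-0.72, SE 0.13). Profilin (PFN1), which binds actin monomers, differed by -0.37, and tropomyosin TPM4 by -0.36 on 1 of its probes and 0.01 on the other.

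S100A6, a calcium-binding protein, was at 110, 84.9 and 87.5 SD on days 6 to 8 and at 226, 279, 350 and 275 SD on days 1 to 4, with 197 SD on day 9. The groups were well apart, with a log2 difference of -1.48 (SE 0.19). S100A2, of the same family, was at 322, 184 and 163 SD against 543 to 1060 SD (-1.81, SE 0.37), and ADIRF, a small nuclear protein, at 57.5, 44.1 and 33.9 SD against 92.6 to 211 SD (-1.84, SE 0.26). Urothelial genes had 1 of 24 higher (UPK1A, 0.34, with 0.01 on its other probe) and 4 lower without overlap, with a median of 0.08. Under quantile normalization 3 of 23 were higher and 1 lower. The keratin KRT7 was at 220, 162 and 183 SD on days 6 to 8 and at 255 to 527 SD on the others, and differed by -0.87 (SE 0.24). KRT19, the transcription factor GATA3 and the surface antigen PSCA differed by -0.77, -0.45 and -0.73. Under quantile normalization KRT7 and KRT19 differed by -0.34 and -0.27.

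Of 39 proliferation genes, 12 (30.8%) were lower and 0 higher without overlap, and 27 overlapped. Their median log2 difference was -0.24. The lower genes were 7 of 37 without the regression and 8 of 39 with the 12 h array among the other days. Of all genes, 595 of 13551 and 185 of 13670 were lower under these settings. CCNB1, the cyclin of entry into mitosis, was at 10.3, 3.39 and 8.53 SD on days 6, 7 and 8 and at 18.8, 16.6, 13.9, 14.9 and 12.4 SD on days 1 to 4 and 9, without overlap (-1.18, SE 0.36). TK1, which makes thymidine monophosphate, had 16.6, 12.7 and 21.2 SD against 27.7 to 41.9 SD (-1.05, SE 0.19). PCNA, the clamp of DNA polymerase, had 16.9, 11.3 and 16.9 SD against 22.9 to 31.9 SD (-0.85, SE 0.18). The replication genes MCM7, RRM2 and MCM2 differed by -0.79, -0.53 and -0.37. The mitotic genes KIF23, CDC20, TOP2A, BUB1, KIF20A and AURKB differed by -0.74, -0.54, -0.47, -0.34, -0.31 and -0.15. Of 13 histone genes, H4C3 was at 61.4, 48.7 and 64.4 SD on days 6 to 8, with 81.4 SD on day 2 and 198 to 283 SD on the other days (-1.63, SE 0.34). H2AX differed by -0.59 and H3-3B by 0.21, and near-identical histone copies may share a probe.

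Of 26 genes of glycolysis and hypoxia, 7 were lower and 2 higher without overlap, with a median log2 difference of -0.20. Lower genes numbered 4 of 26 with values rebuilt with the regression, 3 of 25 without it or by quantile normalization, and 2 of 26 with the 12 h array. The brightest GAPDH spot was at 297, 283 and 385 SD on days 6, 7 and 8 and at 811, 871, 772 and 691 SD on days 1 to 4, with 668 SD on day 9. The lowest of the other days was far above the highest of the 3 (log2 difference -1.25, SE 0.32), and 15 of its 17 spots did not overlap. The spot stayed under 2-fold with rebuilt values, at -0.93 with the regression and -0.69 without it, and at -0.86 by quantile normalization. TPI1, LDHA, ENO1, PKM, ALDOA and ALDOC, which act at other steps of the same pathway, differed by -0.85, -0.72, -0.51, -0.50, -0.48 and -0.34. The value of LDHA is of 1 of its 17 spots, of which 8 were lower without overlap, with differences up to 0.69 and a mean of -0.32. The 2 higher genes, VEGFA (0.92, SE 0.12, with 0.40 on its other probe), a growth factor for blood vessels, and P4HA1 (0.32), a collagen prolyl hydroxylase, are hypoxia targets outside glycolysis.

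Mitochondrial respiration had 10 of 43 lower and 2 higher without overlap, and a median log2 difference of -0.13. Without the regression 5 of 42 were lower, and with the 12 h array 2 of 43, against 595 of 13551 and 185 of 13670 of all genes. COX6A1, a subunit of cytochrome c oxidase, was at 51.7, 45.0 and 25.2 SD on days 6 to 8 and at 62.0 to 72.3 SD on the others (-0.79, SE 0.20). COX7B of the same complex had 58.7, 56.9 and 51.7 SD against 70.7 to 88.5 SD (-0.53, SE 0.09). CYC1, UQCRQ and UQCRH of the complex before it differed by -0.71, -0.62 and -0.59, and citrate synthase (CS) by -0.43, while UQCRC2 and NDUFB3 were higher by 0.19 and 0.17. UQCRC2 differed by -0.06 without the regression. Of the 17 spots of CYC1, 3 were lower without overlap and the mean was -0.28. Of 46 ribosomal proteins, 1 was higher (RPL36, 0.46) and 1 lower (RPS9, -0.41, with 1 of its 17 spots without overlap and a mean of -0.17), and the median was -0.05. This depended on the scaling and on day 6, with 8 of 45 higher and a median of 0.18 by quantile normalization and 13 of 46 lower and a median of -0.21 without day 6. Of all genes, 446 of 13549 were higher by quantile normalization and 982 of 13643 lower without day 6. Translation factors had 3 of 35 higher, among them EIF2S2, the beta subunit of eIF2, at 0.52, and 4 lower, with EIF4A2 at -0.75 and a median of 0.01. Of the 17 spots of EIF4A2, 4 were lower without overlap, with differences from -0.77 to 0.16 and a mean of -0.11.

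**Figure D3:**
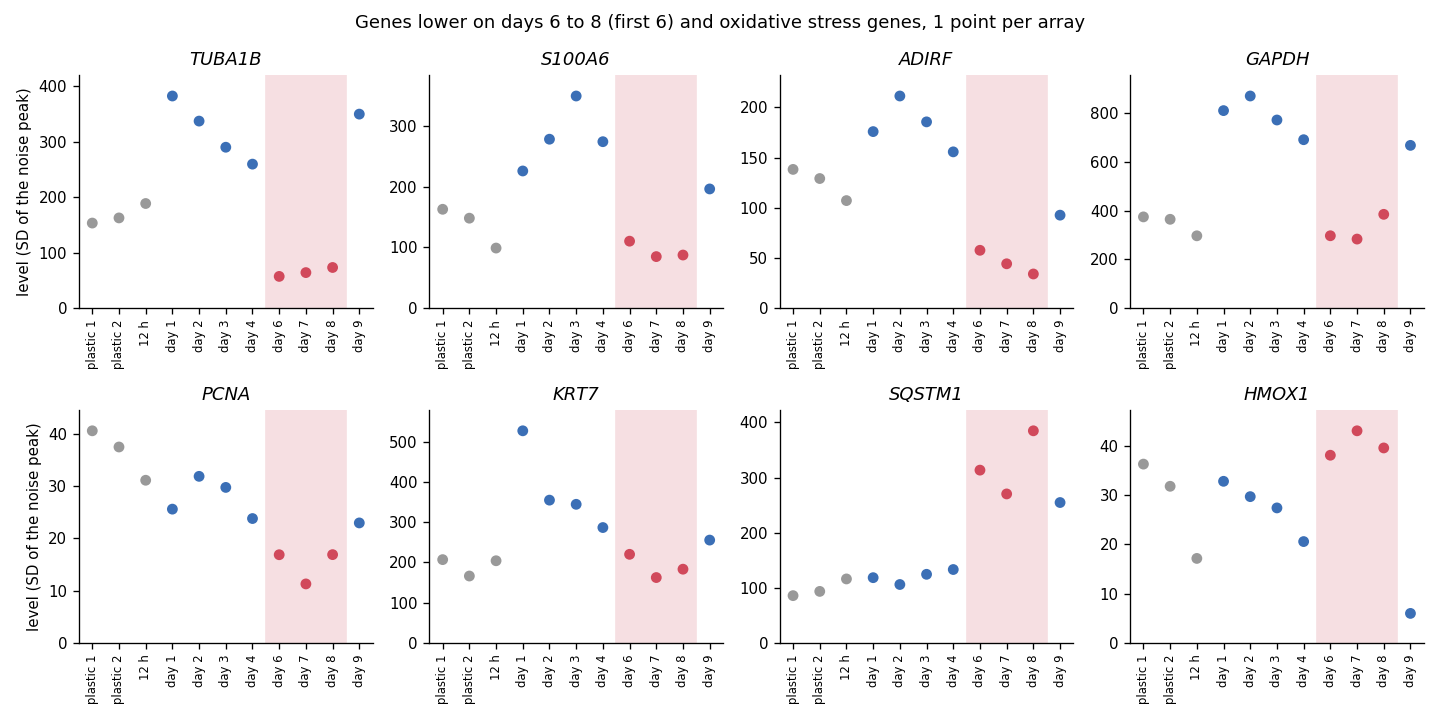
Levels of 8 genes on each of the 11 arrays (vertical axis, SDs of the noise peak, from 0), with plastic and 12 h in gray, days 1 to 4 and 9 in blue and days 6 to 8 in red on a shaded band. TUBA1B, S100A6, ADIRF, GAPDH, PCNA and KRT7 have all 3 red points below all blue points, SQSTM1 has them above with day 9 next at 255 SD, and HMOX1 has its lowest value, 5.96 SD, on day 9.

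Other lists held few genes without overlap. Proteasome genes had 2 of 24 higher and 1 lower without overlap, p53 targets 1 of 18 higher (SESN2, counted above), immediate early genes 2 of 25 higher (JUND and DUSP6), cholesterol and fatty acid synthesis 1 of 22 higher and 1 lower, and apoptosis 1 of 26 in each direction. Metallothioneins (5 measured) and mucins with matrix proteases (18) had 0 in either direction. Markers of other cells showed little, with 0 of 17 fibroblast, 0 of 14 leukocyte and 0 of 10 endothelial genes without overlap, and 1 of 15 nerve, muscle and red cell genes, DES, lower by a log2 difference of -1.36. The summed level of the 11 urothelial markers on the array was 596 to 784 SD on days 6 to 8 and 888 to 1226 SD on the other days. KRT7 and KRT19 made up 344 to 521 SD and 622 to 956 SD of these sums. Of the 11 markers, 9 were above 5 SD on all 8 arrays, while UPK1B was at the floor on all of them. Above 5 SD on all 8 arrays were also 15 of 20 fibroblast and 11 of 15 leukocyte markers on the array. The counts were 8 of 10 for endothelial and 12 of 17 for nerve, muscle and red cell markers. A level above 5 SD thus did not set the urothelial markers apart. The summed fibroblast markers were 468 to 507 SD against 474 to 510 SD. The summed endothelial markers were 194 to 221 SD against 202 to 1416 SD, with ESAM at up to 1232 SD.

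**Figure D4:**
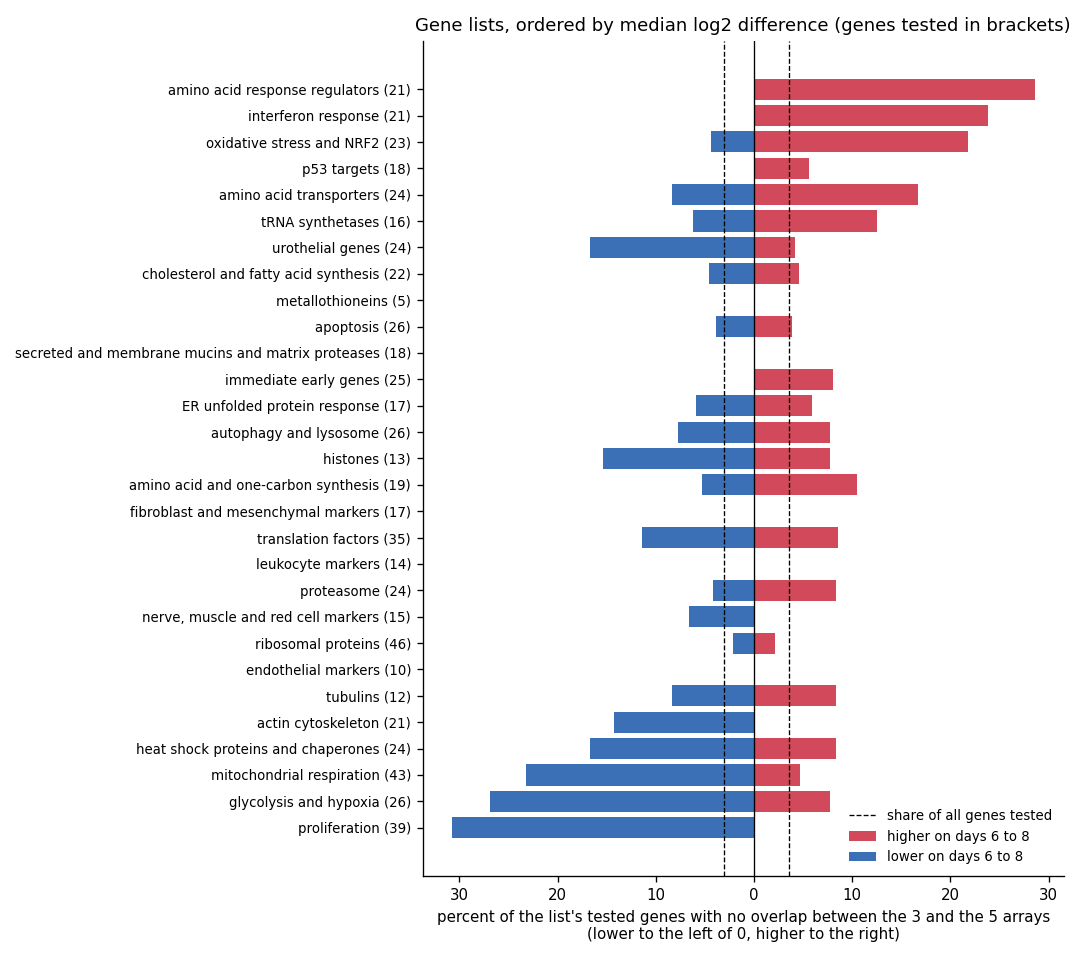
Percent of the measured genes of each list that were higher (red, to the right of 0) or lower (blue, to the left) on days 6 to 8 without overlap, with dashed lines at the shares of all genes, 3.52% and 3.01%. Lists run from the lowest median log2 difference at the bottom, proliferation with 12 of 39 lower, to the highest at the top, amino acid response regulators with 6 of 21 higher.

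Probes were also chosen on 2 of the 3 days and read on the remaining one, which is a description only, since all 3 days had been picked by their values. Of the probes so chosen, day 6 lay on the same side for 42 of 51 higher and 113 of 149 lower ones, and beyond all other days for 24 and 83. Day 7 lay on the same side for 23 of 44 higher and 69 of 70 lower ones, and beyond all other days for 15 and 63. Day 8 lay on the same side for 28 of 29 higher and 159 of 309 lower ones, and beyond all other days for 22 and 100. The median log2 difference toward the call was 0.09 for the 44 probes and 0.01 for the 309. In the remaining sets it ran from 0.32 to 1.39. The 17 spots of TUBA1B are among the lower probes each time, and the lower probes stand for 91, 35 and 199 named genes with days 6, 7 and 8 left out.

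For day 9, probes were chosen on days 6 to 8 against days 1 to 4 alone, without the day 9 values. The days themselves had been grouped with the day 9 values of TRIB3, TUBA1B and SLC1A5 known. The place of these 3 genes on day 9 was therefore in part given in advance. The 81 lower probes include the 17 spots of TUBA1B, and the 27 higher ones include TRIB3 and SLC1A5. For the 81 lower probes, the median share of the shift still present on day 9 was 11.1% (quartiles -5.42% and 29.2%), and 49 of them lay within or past the range of days 1 to 4. For the 27 higher probes, the share was 64.9% (quartiles 39.6% and 88.7%), with 7 within the range of days 1 to 4, 11 between the ranges and 9 in the range of days 6 to 8. With 1 probe per gene, the shares were 15.4% for 35 lower and 53.9% for 23 higher genes, and the difference between the directions was not tested. The share differed among genes from 126% for LCN2, an iron-binding protein of innate immunity, and 102% for S100P to -68.0% for PTGR1.

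Day 9 was tested against days 1 to 4 by limma over all probes, with the lone array assumed to vary like the others. At an adjusted p under 0.05 it differed in 74 probes (0.375%), of which 18 were higher and 56 lower, and at an unadjusted p under 0.05 in 1280. Of the 27 higher and 81 lower probes, 1 was called, ASS1, which on day 9 was still above days 1 to 4 by a log2 difference of 1.29 (95% interval 0.90 to 1.69, adjusted p = 0.026 by limma). HMOX1 had fallen below days 1 to 4 on day 9 by limma, with a log2 difference of -2.19 (95% interval -2.75 to -1.63, adjusted p = 0.0102). TRIB3 was above days 1 to 4 by 0.45 on day 9 (95% interval 0.14 to 0.76, adjusted p = 0.39 by limma), or 33.9% of its shift. NUPR1 kept 50.8%, IFIH1 48.8%, ADIRF 47.5%, SESN2 38.6% and S100A6 32.0% of their shifts, with none past the adjusted threshold. TUBA1B on day 9 differed from days 1 to 4 by 0.16 (95% interval -0.38 to 0.69). Each of these calls rests on 1 spot of 1 array, and a probe that was not called is not thereby shown to have returned to days 1 to 4. The days were grouped by the values of TRIB3 and TUBA1B, day 9 included, so their day 9 values are a description only. If the probe numbers are read as block and position, which no file states, 33 of the 74 probes lay in the 3 fullest of 32 blocks. Any 3 blocks hold 9.38% of the spots, but blocks picked as the fullest tend to hold a larger share of any set. Read the same way, 9 of the 18 higher probes of days 6 to 8 lay in their 3 fullest blocks. Of the 53 lower probes left after the repeat-spotted genes, 16 lay in theirs. A neighboring spot of the same set was found for 14 of these 53 and 0 of the 18. The part of the position on the array in any of these calls was not tested.

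**Figure D5:**
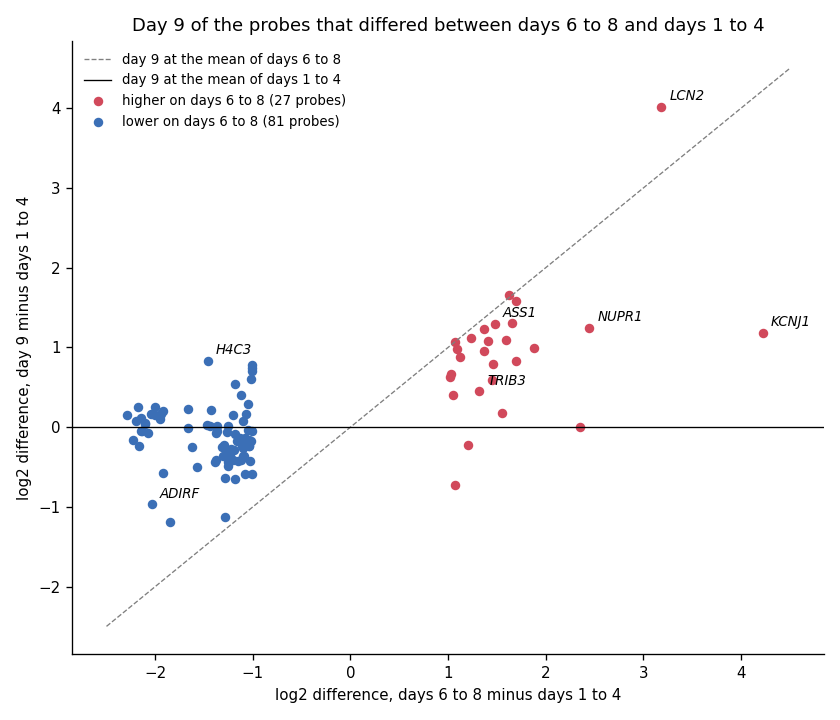
Log2 difference of day 9 from days 1 to 4 (vertical axis) against that of days 6 to 8 from days 1 to 4 (horizontal axis) for the 27 higher (red) and 81 lower (blue) probes chosen without day 9. Blue points lie near the horizontal line at the mean of days 1 to 4, while many red points lie between it and the dashed line at the mean of days 6 to 8.

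The arrays outside the comparison gave a further reading. The 85 lower probes were low on plastic and at 12 h as well, with medians of -0.84 and -0.998 on the 2 plastic arrays and -0.73 at 12 h relative to days 1 to 4 on the log2 scale, against -1.24, -1.47 and -0.999 on days 6, 7 and 8 and 0.01 on day 9. These medians count the 17 spots of TUBA1B and the 15 of GAPDH as separate probes. TUBA1B spots had means of 140 and 135 SD on plastic and 174 SD at 12 h, between days 6 to 8 and the other days. S100A6 was at 163 and 148 SD on plastic, both above days 6 to 8, and at 99.03 SD at 12 h, in their range. For the 18 higher probes the medians were 0.13 and 0.15 on plastic, 0.47 at 12 h and 0.62 on day 9. TRIB3, at 30.8 and 32.0 SD on plastic and 27.1 SD at 12 h, and NUPR1, at the floor on plastic and at 10.2 SD at 12 h, were far below days 6 to 8. The slope of deposited on raw values was as low as 0.669 on a plastic array and was 0.938 at 12 h, so these levels were set by a different scaling.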

How the data were processed

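RNA of RT4 cells was labeled with Cy3 and hybridized to spotted long-oligo arrays. Per array, the authors deposited raw intensities. They also deposited log10 values of the level in noise SDs, which they had adjusted between arrays by robust linear regression. The image software and background correction are not given in the sources used here. The log10 values were turned into log2 values with a floor of 3 SD. Probes above 3 SD on at least 2 of the 8 arrays were kept. Of 22464 probes, 17043 had 1 gene symbol in the platform annotation, 172 several and 5249 none. Of the single-symbol probes, 16952 matched GRCh38.p14 gene identifiers.

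Differences and SEs came from limma 3.58.1 in R 4.3.3 (lmFit, eBayes with trend), with Benjamini-Hochberg adjustment over all probes tested. The fit was tested on simulated data. Day 9 was fitted as a group of its own. With a floored day in the lower group, a fold is a lower bound. A gene in a list was read on its brightest probe. Gene names follow a dated annotation, and precision is limited by how few arrays there are. Since nothing says that days are separate cultures, p-values measure the spread between these samples, which may be technical.

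The days, the genes and the gene lists were chosen with earlier results of these data known. Named were TRIB3, TUBA1B and SLC1A5, the 10 genes with the largest difference in each direction at 2-fold without overlap and 5 SD in the higher group, up to 3 genes per list and direction at 2-fold, and every measured amino acid response regulator. Genes without overlap but under 2-fold were named after their values were seen, as were those chosen on days 6 to 8 against days 1 to 4. Promoters were read from RefSeq windows with Python 3.11.15. Alternatives were other scalings, floors, folds and filters, array weights, each day left out and the 12 h array added.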

Additional observations from a re-analysis of the deposited data

Results flagged for a closer look

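Among the 5 days outside days 6 to 8, the levels of 46 named genes were examined for 1 array far from the other 4, and 11 were found. The cutoff would flag about 2.3 of 46 independent, normally spread groups. These genes were picked from the same arrays, and some values were at the floor, so the count is no test against chance. Day 9 was the array apart for 5 genes. IFIH1 was at 97.8 SD, above 52.2 to 57.9 SD on days 1 to 4, ASS1 at 48.4 SD, above 16.9 to 22.7 SD, and SQSTM1 at 255 SD, above 106 to 133 SD. EIF2AK4, the kinase GCN2 that senses uncharged tRNA, was at 10.9 SD, below 19.9 to 24.95 SD, and HMOX1 at 5.96 SD, below 20.5 to 32.8 SD.

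Day 3 was low for ATF3, at 4.48 SD against 22.5 to 29.5 SD, and for ATF5, at 13.9 SD against 30.2 to 35.9 SD. Day 2 was low for GADD45A, at 9.18 SD against 25.6 to 37.0 SD, and for H4C3, at 81.4 SD against 198 to 283 SD. Day 4 was high for CEBPG, at 70.7 SD against 41.8 to 47.3 SD, and CHAC1 was at 3.10 SD on day 4 with every other of these days at the floor.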

How the results depend on the processing

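Each probe is 1 spot on 1 array per day, and values near 3 SD have no order. The main counts were 18 probes higher and 85 lower at 2-fold without overlap. Rebuilding the values from the raw intensities with a regression gave 5 and 27, without it 8 higher, quantile normalization 26 lower, a floor of 1 SD 30 higher, and the 12 h array as a further day 38 lower. At 1.5-fold they were 67 and 211, and at 3-fold 3 and 23. All 17 TUBA1B spots were among the lower probes under every setting that changed the values or the arrays. The days were chosen by values of TUBA1B on these arrays, so this carries no support beyond that choice. Without overlap alone (604 and 639), skipping the regression gave 34 higher, and the 12 h array 315 and 286. As another rule for a call, an adjusted p under 0.05 by limma gave 7 higher and 62 lower, 17 of the latter TUBA1B spots. The days were chosen by these values, so the threshold carries no error rate. These counts became 11 and 38 without the regression, 11 higher by quantile normalization, 2 and 40 without the filter on low values, 11 higher with array weights and 26 lower with the 12 h array. Day 9 differed from days 1 to 4 in 39 probes in place of 74 without the regression and in 126 without the filter. The median share of the shift left on day 9 in lower probes, 11.1%, was -2.375% with values rebuilt with the regression and 27.3% without it. It was 0.71% by quantile normalization and -2.60% at 3-fold. The causes were not tested.

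With each day left out in turn, probes at 2-fold without overlap ranged from 26 to 51 higher and from 70 to 309 lower, and those without overlap from 781 to 1188 and from 844 to 1635. The 51 came without day 6 and the 309 without day 8, where fewer arrays have to agree. The limma counts ranged from 1 (without day 7) to 15 (without day 9) higher and from 28 (without day 7) to 60 lower, and the count of day 9 against days 1 to 4 from 40 (without day 2 or day 7) to 73. The share left on day 9 ranged from 43.9% to 71.7% for higher and from 6.25% to 18.7% for lower probes.

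Of the settings run for named genes, 1833 stayed within the spread between days, 134 moved, and 3 of genes without overlap turned their direction, HSP90AB1 to 0.0193 by quantile normalization, and UQCRC2 to -0.0639 and SREBF1 to -0.001434 without the regression. Another 8 named genes that overlapped crossed 0, CEBPG, STC2, EIF2AK3, EIF2AK4, VLDLR, GDF15, INHBE and ADM2. TRIB3 ranged from 0.90 to 1.34, NUPR1 from 1.62 to 2.45 and the brightest TUBA1B spot from -2.41 to -1.71 on the log2 scale. Without the regression, where the median of all genes was -0.23, the amino acid response regulators had 5 of 20 higher and a median of 0.20, and interferon genes 3 of 20 and -0.02. No paired analysis was possible because numbers within a group only name days or plastic arrays, and each day has a single array.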
